A study of Papio papio with 23 samples.

Results

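The comparison described here set the 2nd day after irradiation against the 1st day in whole blood of the 5 baboons that later developed the more severe hematological acute radiation syndrome, category H2-3. Its members were chosen by the sample titles, which give the category, the day and the number of the baboon, so each day 2 array was paired with the day 1 array of the same animal. These 10 arrays are part of a series of 23, which also holds 8 arrays of the milder category H1-2 (4 baboons, each on day 2 and day 1) and 5 arrays of baboons sampled before irradiation (H0). The animals were adult male Papio papio with a mean age of 8.1 ± 3.3 years. All H2-3 and H1-2 animals had been exposed to 60Co gamma rays over the total or a part of the body, with a whole-body equivalent of 2.5 or 5 Gy. The labels state dose and field for the study and not per animal, so groups are defined by the later syndrome and not by dose. The titles say that the H0 samples were taken before irradiation, but do not link their baboon numbers to those of the H1-2 and H2-3 animals, so H0 was not paired with them. The study looked for early blood transcripts that precede the syndrome, and the comparison asks what moved within an animal between the first 2 days.

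Hematological acute radiation syndrome is the loss of blood cells after the bone marrow has been irradiated. Lymphocytes die within hours to days of exposure, whereas neutrophils are released from marrow stores early and decline later. Interferon-stimulated genes are switched on when cells sense interferon, and many of their products block viruses. Whole blood RNA mixes all of these cells, and in such bulk samples fewer cells of a type and less RNA per cell cannot be told apart.

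Each level is a log2 signal minus the 75th percentile of its array, changes are log2 differences of day 2 minus day 1 within the animal with their standard error, and adjusted p-values are from limma with Benjamini-Hochberg adjustment over 21130 genes at a threshold of 0.05. "Rose" and "fell" are used of genes past that threshold. The labelled tissue was borne out by its markers: HBB (a hemoglobin chain), CD3G (T cell receptor complex) and CD177 (a neutrophil surface protein) were well above background on all 10 arrays. B cell markers were the exception in the H2-3 animals. VPREB1 was well above background on 0 of 5 day 2 arrays and 1 of 5 day 1 arrays, against 5 of 5 H0 arrays. On average 48.7% ± 2.3 of probes (SD over 5 arrays) were well above background on day 2 and 46.2% ± 2.8 on day 1.

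Several features of the arrays bear on every result. All day 1 arrays were scanned on 1 day and all day 2 arrays on another, in both categories, so day after exposure and scan day cannot be told apart. The arrays of H0 baboons 3 to 5 were scanned with the day 1 arrays and those of H0 baboons 1 and 2 on a further day. No H0 array shared a scan day with day 2, so differences between day 2 and H0 carry the same limit. Day 1 and day 2 arrays never shared a slide. The day 1 array of H2-3 baboon 1 shared its slide with an H0 array, whereas those of H2-3 baboons 2 to 5 were on other slides. Baboon 1 stood apart: across the 21130 genes, which are not independent replicates, its profile of changes correlated with those of the other H2-3 animals at 0.03 to 0.21, whereas those of baboons 2 to 5 correlated with each other at 0.46 to 0.72. Its day 1 array had the lowest share of probes above background, 41.4%. The labelling spike-ins, relative to the same percentile, averaged 5.66 ± 0.76 on day 2 and 5.12 ± 0.23 on day 1 (SD, n = 5 each), with the highest values, 6.22 and 6.63, on the day 2 arrays of baboons 4 and 5. The part of these differences in the results was not tested.

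From day 1 to day 2 in the H2-3 baboons, 12 of 24 T cell genes, 9 of 26 NK and cytotoxic genes and 12 of 35 interferon-stimulated genes rose. By contrast, 3 of 25 mature neutrophil genes and 2 of 20 monocyte and macrophage genes fell. Of 21130 genes, 602 changed (2.85%), of which 474 rose (2.24%) and 128 fell (0.606%). Changes of at least 2-fold were seen for 367 of the genes that rose and 85 of those that fell. The median change over all genes was -0.03. All 5 day 2 arrays lay above all 5 day 1 arrays for 574 genes (2.72%) and below them for 600 genes (2.84%). Of the 474 genes that rose, 362 had group means below the H0 mean on both days, 88 were below it on day 1 and at or above it on day 2, and 24 were above it on both days. Of the 128 that fell, 77 were above the H0 mean on day 1 and at or below it on day 2, 45 were above it on both days and 5 were below it on both, and ADH1C was level with it on day 1 at -2.03 and below it on day 2.

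The smallest adjusted p was 0.0294, so all calls lie near the threshold. With slide as a random block 0 genes passed (4314 had an unadjusted p under 0.05, lowest adjusted p 0.116), and 0 passed when baboon 3, baboon 4 or baboon 5 was left out. Without baboon 2, 60 genes passed, and without baboon 1, 5082 did (1846 higher, 8.74%, and 3236 lower, 15.3%). All 602 genes kept the sign of their change in these 6 fits, and all 602 were called in the same direction without baboon 1. The counts of list members without baboon 1 given below are to be read against 8.74% higher and 15.3% lower over all genes. With another background correction, normexp, 961 genes passed, but dim genes had smaller changes: of the named genes below, WTH3DI (0.74), ACVR1C (0.38), CRISP2 (-0.43), TSL (-0.37), WNT7A (0.33), AXIN2 (0.02), CENPF (0.20), MCM4 (0.36) and ALDOC (0.51) no longer passed, with adjusted p of 0.0595 to 0.938.

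**Figure D1:**
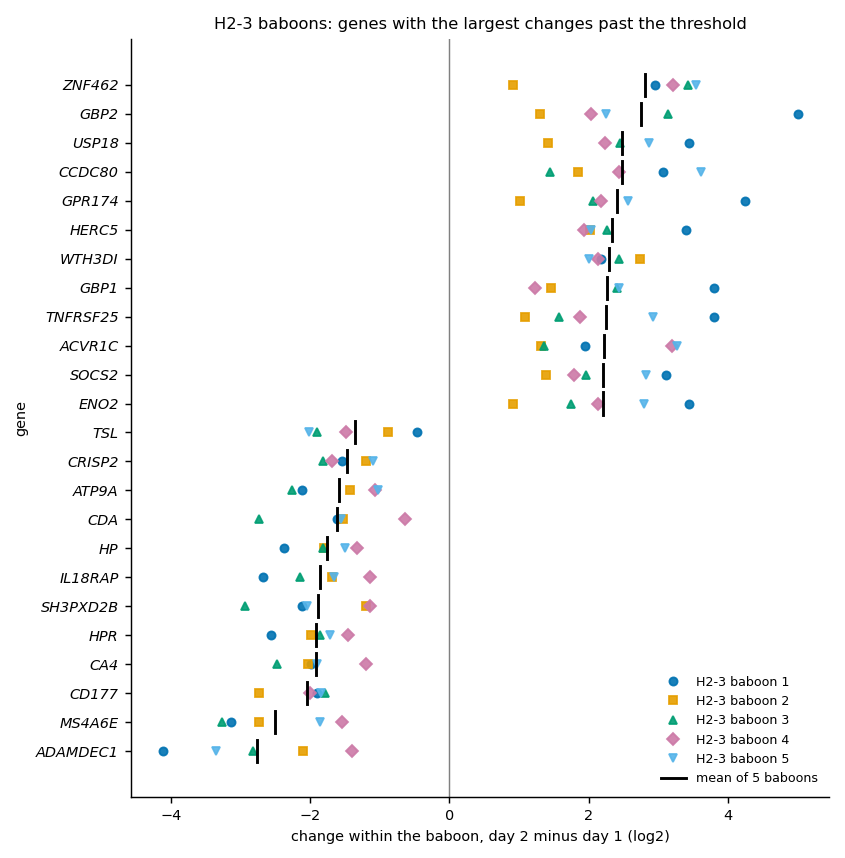
Change within each H2-3 baboon from day 1 to day 2 (log2, horizontal axis) for the 12 largest rises and the 12 largest falls. Genes were taken from those with a symbol, an adjusted p under 0.05 and a signal above background on all 5 arrays of a day. They also had to have the same sign in 5 of 5 baboons, so the agreement of the animals in sign follows from the choice. Each symbol is 1 baboon and each bar the mean of 5. Baboon 1 has the largest rise for GBP2, USP18, GPR174, HERC5, GBP1, TNFRSF25, SOCS2 and ENO2.

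The probes of 3 of these 24 genes span more of the genome than their own 60 bases, that is, they lie across an exon junction of the spliced RNA. They are shown as the sequences behind a large rise and 2 large falls. Coordinates are those of the human build hg19 given by the scanner files, and the probes were hybridised with baboon RNA. GBP2 lies at chr1:89575896-89578160 on the minus strand, CA4 at chr17:58235472-58235686 on the plus strand and CRISP2 at chr6:49663607-49665601 on the minus strand.
GBP2: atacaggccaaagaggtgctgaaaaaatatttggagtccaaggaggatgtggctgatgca
CA4: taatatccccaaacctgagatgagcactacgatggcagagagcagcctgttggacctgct
CRISP2: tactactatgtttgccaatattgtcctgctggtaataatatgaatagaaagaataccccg

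The interferon-stimulated list held the clearest separation between the days. Of 35 members tested, 12 rose and 0 fell, with a median change of 0.84, and for 12 of 35 all day 2 arrays lay above all day 1 arrays. In 26 of 35 the change was positive in 5 of 5 baboons, against 12.9% of all genes. The median change of the list was 1.46, 0.47, 0.76, 0.73 and 0.73 in baboons 1 to 5. The mean level of the list averaged 2.02 ± 0.47 in H0 baboons, 1.47 ± 0.33 on day 1 and 2.37 ± 0.29 on day 2 (SD, n = 5 each). Without baboon 1, 20 members rose and 1 fell. With no baboon block, 8 of 35 rose.

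Among the effectors, GBP2, a guanylate-binding GTPase of cell-autonomous defence, was at 4.97, 2.76, 3.30, 3.66 and 3.01 on day 2 in baboons 1 to 5, against -0.03, 1.46, 0.15, 1.63 and 0.76 on day 1. Baboon 1 had both the lowest day 1 and the highest day 2 value, and the days did not overlap. GBP2 rose by 2.75 ± 0.49 (6.71-fold, adjusted p = 0.0403), and by 2.18 without baboon 1. Its relative GBP1 was at 1.70, 2.02, 2.20, 2.00 and 0.85 on day 2, against -2.10, 0.56, -0.21, 0.77 and -1.59 on day 1, again without overlap. GBP1 rose 4.82-fold (2.27 ± 0.36, adjusted p = 0.0341). Other members of the family did not pass: GBP4 changed by -0.54 (adjusted p = 0.0974) and GBP5, well above background on 1 day 2 array and 2 day 1 arrays, by -0.82 (adjusted p = 0.167).

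HERC5, the ligase that attaches the ubiquitin-like protein ISG15 to its targets, was at 1.86, 1.33, 0.93, 2.24 and 1.71 on day 2, against -1.54, -0.69, -1.34, 0.31 and -0.33 on day 1. Every day 2 array exceeded every day 1 array, and HERC5 rose by 2.33 ± 0.24 (5.04-fold, adjusted p = 0.0294). USP18, the protease that removes ISG15 and dampens interferon signalling, was at -1.29, -1.53, -1.58, -0.95 and -0.65 on day 2, against -4.73, -2.94, -4.02, -3.19 and -3.52 on day 1. The days did not overlap, but only 1 of 5 day 1 arrays was well above background for USP18, which rose 5.59-fold in the fit (2.48 ± 0.29, adjusted p = 0.0294). ISG15 itself rose by 1.13 (adjusted p = 0.0294). Of the signalling components, STAT2 rose by 1.18 (adjusted p = 0.0377), while IRF9 changed by 0.66 (adjusted p = 0.0628). IFIT3, an RNA-sensing effector, rose by 1.53 and IFI44 by 1.48 (adjusted p = 0.0294 for both). Other antiviral genes of the list had smaller values that did not pass, among them MX2 at 0.52 (adjusted p = 0.106), OAS2 at 0.32 (adjusted p = 0.549) and RSAD2 at 0.06 (adjusted p = 0.928).

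Antigen loading on MHC class I, which interferon also raises, was represented by 17 tested genes, of which 1 rose and 0 fell (median 0.26). Without baboon 1, 2 of 17 rose, against 8.74% of all genes. The gene that rose with all 5 baboons was ERAP1, the peptidase that trims peptides in the endoplasmic reticulum. ERAP1 was at 2.73, 3.18, 2.83, 3.59 and 3.43 on day 2, against 2.00, 2.61, 2.01, 2.61 and 2.39 on day 1, without overlap, and rose 1.78-fold (0.83 ± 0.15, adjusted p = 0.0412). PSMB9, a catalytic subunit of the immunoproteasome, changed by 0.65 ± 0.16 and was higher in 5 of 5 baboons (adjusted p = 0.0721). The probes named for the class I heavy chains HLA-B and HLA-C changed by 0.20 and -0.14. These are separate but related genes whose probes may share signal, and which baboon transcripts they read could not be checked. Of 16 MHC class II genes 0 passed in either direction, with a median of 0.01, and HLA-DRA, the shared alpha chain, changed by -0.36 (adjusted p = 0.161).

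**Figure D2:**
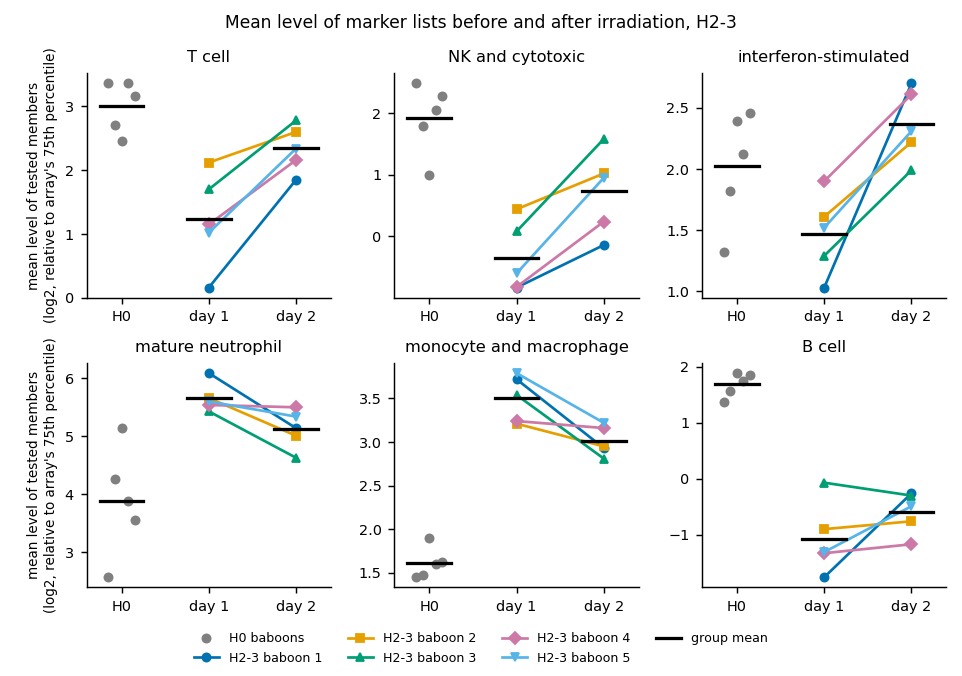
Mean level of the tested members of 6 lists (log2 signal relative to the array's 75th percentile, vertical axis) in H0 baboons (grey points) and in the H2-3 baboons on day 1 and day 2, with a line per animal and a bar at each group mean. T cell, NK and interferon-stimulated lists were higher on day 2 in every animal, neutrophil and monocyte lists were lower on day 2 in every animal, and B cell levels lay far below H0 on both days.

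Many T cell transcripts were higher on day 2, while the mean of the list stayed below that of the H0 group. Of 24 T cell genes, 12 rose and 0 fell, with a median change of 1.46, and medians of 1.84, 0.70, 1.44, 1.56 and 1.56 in baboons 1 to 5. The mean level of the list averaged 3.01 ± 0.41 in H0 baboons, 1.23 ± 0.74 on day 1 and 2.35 ± 0.37 on day 2 (SD, n = 5 each). Without baboon 1, 15 genes rose and 1 fell. With no baboon block 0 of 24 passed, so the call rests on the pairing: for most of these genes the ranges of the 2 days overlapped, 3 of 24 had all day 2 arrays above all day 1 arrays, and 2 of 24, CD4 and LCK, had all day 2 arrays below. Of the 24, 17 were higher and 3 lower in 5 of 5 baboons, against 12.9% higher and 11.4% lower over all genes, so the lower count is near that share.

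Of the receptor complex, CD3G was at 2.97, 3.71, 4.61, 3.29 and 3.93 on day 2, against 0.82, 2.93, 2.86, 1.64 and 1.46 on day 1. The days did not overlap, with the lowest day 1 value in baboon 1, and CD3G rose 3.39-fold (1.76 ± 0.25, adjusted p = 0.0294). CD3D rose by 1.25 (adjusted p = 0.048), whereas CD3E, another chain, changed by -0.46 (adjusted p = 0.109). Among coreceptors, CD8A was at 2.47, 4.76, 5.30, 4.30 and 4.40 on day 2, against 0.59, 3.73, 3.01, 2.62 and 2.44 on day 1. All 5 animals were higher on day 2, though the day 2 value of baboon 1 lay below the day 1 values of baboons 2 to 4. CD8A rose 3.41-fold (1.77 ± 0.21, adjusted p = 0.0294), and a second CD8A probe gave 0.66, higher in 5 of 5 baboons. CD8B rose by 1.67 (adjusted p = 0.0294). CD4, the coreceptor of helper T cells that monocytes also carry, changed by -0.80 (adjusted p = 0.0583).

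Of the signalling proteins behind the receptor, ZAP70, the kinase that binds the activated receptor, rose by 1.52 (adjusted p = 0.0326), and LCK, the kinase that starts the signal, changed by -0.60 (adjusted p = 0.0792). The surface receptors CD5 and CD6 rose by 2.03 and 2.00, the phosphatase UBASH3A by 1.99 and the lineage factor BCL11B by 1.85 (adjusted p = 0.0295, 0.0367, 0.0294 and 0.0362). Further lymphocyte receptors were among the largest rises. TNFRSF25, a death receptor of T cells, was at 2.99, 3.88, 3.34, 2.78 and 3.35 on day 2, against -0.81, 2.79, 1.77, 0.89 and 0.43 on day 1, and rose 4.77-fold (2.25 ± 0.39, adjusted p = 0.0395). The 2 days met only at baboon 2's day 1 value of 2.79 and baboon 4's day 2 value of 2.78. GPR174, a lysophosphatidylserine receptor of lymphocytes, was at -0.25, 1.02, 1.47, 0.35 and 0.81 on day 2, against -4.48, 0.01, -0.59, -1.83 and -1.75 on day 1. It rose 5.31-fold (2.41 ± 0.41, adjusted p = 0.0395), and by 1.95 without baboon 1.

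Genes of NK and cytotoxic cells also held many rises. Of 26 tested, 9 rose and 0 fell, with a median of 1.17 (0.61, 0.74, 1.25, 1.39 and 1.64 in baboons 1 to 5). Without baboon 1, 16 rose and 1 fell, and with no baboon block 1 of 26 rose. The mean level averaged 1.92 ± 0.58 in H0 baboons, -0.35 ± 0.58 on day 1 and 0.73 ± 0.68 on day 2 (SD, n = 5 each). Among effector proteins, PRF1, the pore-forming perforin, was at 1.61, 3.83, 4.19, 2.37 and 3.20 on day 2, against -0.14, 2.78, 2.24, 0.51 and 1.58 on day 1. Animals kept wide differences from each other and the days overlapped, but each was higher on day 2, and PRF1 rose 3.12-fold (1.64 ± 0.18, adjusted p = 0.0294). The granule proteases GZMH and GZMB rose by 1.8 and 1.44 (adjusted p = 0.0412 and 0.0294), while GZMA, well above background on 1 of 5 day 2 arrays and 0 of 5 day 1 arrays, could not be measured. IL2RB, the beta chain of the interleukin-2 and interleukin-15 receptors, rose 2.87-fold (1.52 ± 0.21, adjusted p = 0.0294). The transcription factors TBX21 and EOMES, which drive cytotoxic programmes, rose by 1.99 and 1.29 (adjusted p = 0.0294 and 0.0484). Not all members followed: SPON2 changed by -1.09 (adjusted p = 0.103) and CST7, an inhibitor of lysosomal proteases, by -0.60 (adjusted p = 0.0972).

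B cell and naive lymphocyte genes did not pass. Of 22 B cell genes 0 rose and 0 fell (6686 genes, 31.6% of all tested, had an unadjusted p under 0.05), with a median of 0.46 that ranged over the animals between 0.02 in baboon 2 and 1.21 in baboon 1. Without baboon 1, 3 B cell genes rose and 3 fell. The list averaged 1.69 ± 0.22 in H0 baboons, -1.07 ± 0.64 on day 1 and -0.60 ± 0.38 on day 2 (SD, n = 5 each). BLK, a kinase of the B cell receptor, was at 0.06, -1.30, 0.92, -0.64 and 0.98 on day 2, against -2.31, -1.09, -0.36, -2.44 and -1.78 on day 1. It was higher in 4 of 5 baboons and changed by 1.6 ± 0.41 (adjusted p = 0.0737). POU2AF1, a B cell coactivator, changed by 1.98 ± 0.53 (adjusted p = 0.0788), but its second probe gave -0.17. Of the components of the receptor, CD79B changed by 0.79 (adjusted p = 0.118) and CD79A by -1.07 (adjusted p = 0.14). Of 11 naive lymphocyte genes 0 passed, with a median of 0.96, and 2 rose without baboon 1. CCR7, the receptor that guides naive lymphocytes into lymph nodes, was at 5.19, 5.66, 3.20, 3.95 and 4.48 on day 2, against 1.26, 4.24, 4.40, 1.97 and 1.26 on day 1. Baboon 3 was lower on day 2 and the other 4 were higher, and the change of 1.87 ± 0.67 did not pass (adjusted p = 0.118). IL7R, the interleukin-7 receptor, had all day 2 arrays above all day 1 arrays and changed by 1.71 ± 0.39 (adjusted p = 0.061). Of 12 plasma cell genes 0 passed, and without baboon 1, 4 rose and 1 fell. MZB1, a chaperone of antibody secretion, changed by 2.24 ± 0.50 (adjusted p = 0.0581) on one probe and by -0.40 on another.

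Neutrophil transcripts had negative medians, with few genes past the threshold. Of 25 mature neutrophil genes, 0 rose and 3 fell, with a median of -0.51, and the list median was negative in every animal, between -0.81 in baboon 1 and -0.03 in baboon 4. Of 18 granule genes 0 rose and 3 fell (median -0.46), and baboon 4 had a median of 0.18. Without baboon 1, 6 mature neutrophil genes fell and 1 rose, and 4 granule genes fell. The mature neutrophil list averaged 3.88 ± 0.94 in H0 baboons, 5.66 ± 0.25 on day 1 and 5.12 ± 0.33 on day 2 (SD, n = 5 each).

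CD177, a surface protein of neutrophils that is raised in acute responses, was at 5.25, 3.48, 3.81, 3.75 and 3.99 on day 2, against 7.16, 6.22, 5.59, 5.74 and 5.82 on day 1. Every day 2 array lay below every day 1 array, with baboon 1 the highest on both days, and CD177 fell by 2.05 ± 0.19 (4.14-fold lower, adjusted p = 0.0294). A second CD177 probe gave -2.04, and another, well above background on only 2 of 5 arrays of each day, gave -0.33. VNN2, a vanin of the neutrophil surface, was at 6.49, 6.18, 5.51, 6.98 and 6.49 on day 2, against 7.97, 7.58, 6.90, 7.47 and 7.52 on day 1. The ranges met at baboon 4's day 2 value, and VNN2 fell 2.24-fold (change -1.16, adjusted p = 0.0373). KCNJ15, a potassium channel, also fell (-0.88, adjusted p = 0.0461). The calcium-binding proteins S100A8, S100A9 and S100A12 changed by -1.35, -1.01 and -1.17 (adjusted p = 0.0713, 0.0617 and 0.0982) and the chemokine receptors CXCR1 and CXCR2 by -0.84 and -0.52 (adjusted p = 0.0916 and 0.154).

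Of granule proteins, HP, haptoglobin, which binds free hemoglobin and which neutrophils also store, was at 7.68, 7.16, 7.11, 7.79 and 7.75 on day 2, against 10.07, 8.96, 8.93, 9.11 and 9.24 on day 1. HPR, its near-identical copy, was at 6.22, 5.61, 5.71, 6.27 and 6.19 on day 2, against 8.78, 7.58, 7.56, 7.72 and 7.90 on day 1. In both, the 5 day 2 arrays lay well below the 5 day 1 arrays, and baboon 1 had the highest day 1 value. Signals of such copies cannot be told apart with certainty, and both are reported as uncertain in identity. HP fell 3.40-fold (change -1.76 ± 0.19) and HPR 3.76-fold (change -1.91 ± 0.19; adjusted p = 0.0294 for both). RNASE3, a ribonuclease of granules that eosinophils also hold, was lower on day 2 in every animal without overlap of the days and fell 1.81-fold (-0.85 ± 0.17, adjusted p = 0.0469). Primary granule enzymes did not pass: MPO changed by 0.02 (adjusted p = 0.967) and CTSG by -0.19 (adjusted p = 0.715). LCN2, a siderophore-binding protein of secondary granules, changed by 0.82 (adjusted p = 0.356) and LTF, lactoferrin, by -1.47 (adjusted p = 0.147).

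Further transcripts among the largest falls are of enzymes and receptors. CA4, a membrane-anchored carbonic anhydrase, was at 2.12, 1.03, 1.00, 2.17 and 1.97 on day 2, against 4.11, 3.06, 3.47, 3.36 and 3.88 on day 1, without overlap, and fell 3.78-fold (-1.92 ± 0.21, adjusted p = 0.0294). IL18RAP, the accessory chain of the interleukin-18 receptor, was at 3.25, 2.22, 2.74, 3.61 and 3.22 on day 2, against 5.92, 3.91, 4.89, 4.76 and 4.87 on day 1. The days did not overlap and this probe fell 3.63-fold (-1.86 ± 0.24, adjusted p = 0.0294), but a second IL18RAP probe, well above background on all 10 arrays, gave 0.09 with 3 of 5 baboons higher. IL18RAP was the 1 gene of 35 innate inflammatory genes that fell, and 0 rose (median -0.22). Without baboon 1, 3 of these 35 fell and 1 rose, against 15.3% and 8.74% of all genes. CDA, cytidine deaminase, was at 3.01, 1.97, 0.71, 3.54 and 2.86 on day 2, against 4.63, 3.48, 3.45, 4.17 and 4.42 on day 1. Only baboon 4's day 2 value reached into the day 1 range, and CDA fell 3.06-fold (-1.61 ± 0.28, adjusted p = 0.0399). ATP9A, a membrane ATPase of the phospholipid flippase family, fell 2.99-fold (-1.58 ± 0.24, adjusted p = 0.0297), with -0.96 on a second probe. CRISP2, a cysteine-rich secretory protein, fell by 1.47 ± 0.17 in the fit (adjusted p = 0.0294). Since 1 of 5 day 2 arrays was well above background, the size of this fall is uncertain, and it was -0.43 with normexp.

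In the monocyte and macrophage list, 2 of 20 genes fell and 0 rose, with a median of -0.32. Without baboon 1, 3 of 20 fell, against 15.3% of all genes. Both genes that fell with all 5 baboons are of macrophages rather than of blood monocytes in their known expression. ADAMDEC1, a secreted metalloprotease-like protein of macrophages, was at -3.19, -0.88, -2.23, -0.89 and -1.98 on day 2, against 0.93, 1.22, 0.58, 0.51 and 1.37 on day 1. No day 2 array reached the day 1 range, and ADAMDEC1 fell 6.75-fold (-2.76 ± 0.38, adjusted p = 0.0294), the largest fall among the named genes. In H0 baboons it averaged -4.09 ± 1.13 and 1 of 5 arrays was well above background, so its day 2 mean of -1.83 ± 0.98 lay between those of H0 and of day 1 (0.92 ± 0.38). MSR1, a scavenger receptor, fell 1.81-fold (-0.86 ± 0.15, adjusted p = 0.0403). A second MSR1 probe, well above background on 5 of 5 arrays of each day, gave -0.61, with 4 baboons lower and 1 higher. MARCO, another scavenger receptor, was at 1.22, -0.26, -0.59, 1.75 and 2.05 on day 2, against 1.76, 1.22, 1.06, 2.31 and 3.72 on day 1. It was lower on day 2 in every animal, yet its change of -1.18 ± 0.24 lay just outside the threshold (adjusted p = 0.05 after rounding). The H0 arrays were all below background for MARCO. CD14, the lipopolysaccharide coreceptor of monocytes, changed by 0.00 (adjusted p = 0.997), and FCN1 by -0.20 (adjusted p = 0.407).

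MS4A6E, of a family of membrane proteins with 4 transmembrane passes, was at -1.83, -3.76, -3.75, -2.14 and -2.55 on day 2, against 1.31, -1.02, -0.48, -0.61 and -0.69 on day 1. It fell 5.69-fold in the fit (-2.51 ± 0.29, adjusted p = 0.0294), and 3 of 5 day 2 arrays were well above background. SH3PXD2B, an adaptor of podosomes, the adhesive structures of macrophages, was lower on day 2 in every animal without overlap. It fell 3.70-fold (-1.89 ± 0.28, adjusted p = 0.0297), with 4 of 5 day 2 arrays well above background. TSL fell 2.55-fold (-1.35 ± 0.26, adjusted p = 0.0458), with overlapping days and 3 of 5 day 2 arrays well above background.

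**Figure D3:**
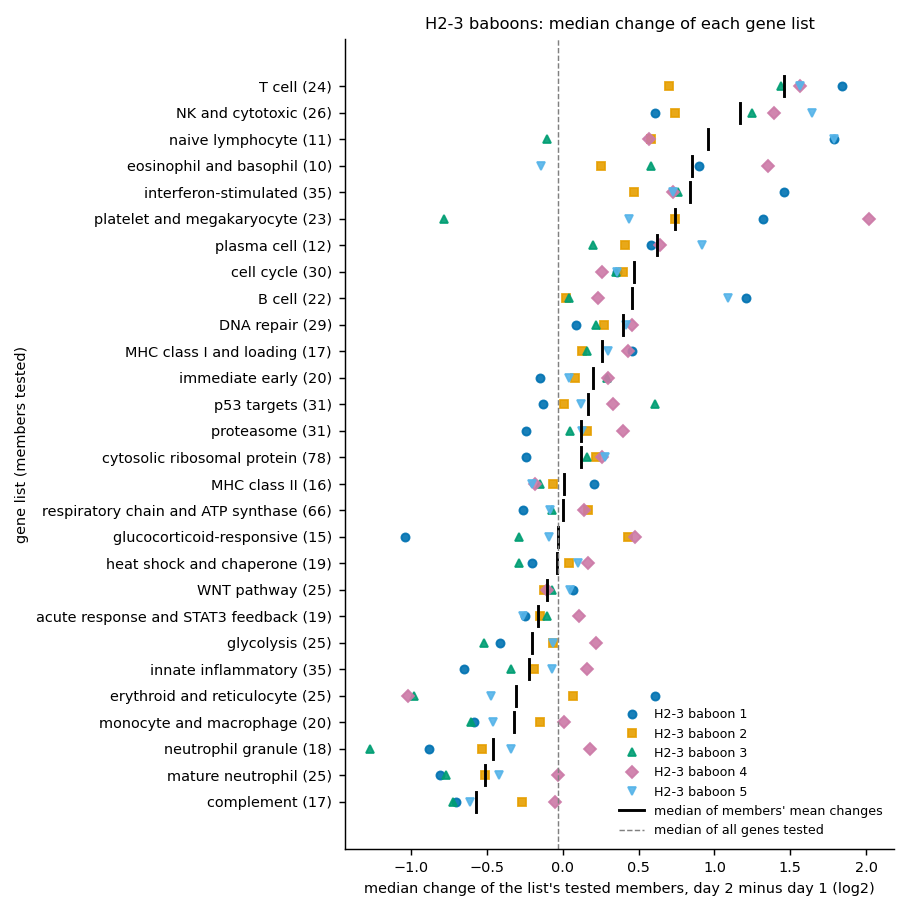
Median change of the tested members of each of 28 gene lists from day 1 to day 2 (log2, horizontal axis) in each H2-3 baboon (symbols) and over the mean of the 5 (bar), ordered by that median. The dashed line is the median of all genes tested, -0.03; the platelet list has the widest range between animals, between -0.78 and 2.02, followed by the naive lymphocyte list, between -0.10 and 1.79.

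Platelet and red cell transcripts had 0 genes past the threshold and list medians that differed widely between animals. Of 23 platelet and megakaryocyte genes 0 passed, with a median of 0.74, and the list median was -0.78 in baboon 3 and 2.02 in baboon 4. PF4, platelet factor 4, was at 8.47, 6.74, 7.16, 8.07 and 7.97 on day 2, against 7.04, 6.12, 8.33, 6.67 and 7.87 on day 1, with baboon 3 lower and the others higher on day 2 (0.47 ± 0.38, adjusted p = 0.427). Of 25 erythroid genes 0 passed (median -0.31; 1 rose and 2 fell without baboon 1), and HBB changed by -0.18 ± 0.18 (adjusted p = 0.525). Of 10 eosinophil and basophil genes, 2 rose and 0 fell, with a median of 0.85, and 2 rose and 1 fell without baboon 1. HDC, the enzyme that makes histamine in basophils, was at 0.07, 1.36, 2.91, 2.82 and 1.41 on day 2, against -3.05, 0.09, 0.23, 0.87 and 0.48 on day 1. Each animal was higher on day 2 and HDC rose 3.97-fold (1.99 ± 0.34, adjusted p = 0.0382). CCR3, the eotaxin receptor of eosinophils and basophils, rose 1.94-fold (0.96 ± 0.19, adjusted p = 0.0495), while ALOX15, a lipoxygenase of eosinophils, changed by -1.17 (adjusted p = 0.0562).

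The genes commonly used as markers of radiation exposure, which are targets of the transcription factor p53, mostly did not pass for a change between the days. Of 31 p53 targets, 1 rose and 0 fell, with a median of 0.17; this is a share near the 2.24% of all genes that rose. Without baboon 1, 6 rose and 0 fell. PLK2, a polo-like kinase, was at -1.19, -0.18, -0.29, -0.90 and -0.80 on day 2, against -3.38, -1.13, -1.66, -2.75 and -2.37 on day 1. It was higher on day 2 in each animal and rose 3.01-fold (1.59 ± 0.21, adjusted p = 0.0294). CDKN1A, the inhibitor that stops the cell cycle after DNA damage, was at -0.53, -2.19, -0.12, -0.68 and -0.40 on day 2, against 0.16, -0.46, -0.71, 0.07 and 0.81 on day 1. It was lower in 4 of 5 baboons and did not pass (-0.75 ± 0.32, adjusted p = 0.154). DDB2, which recognises damaged DNA, changed by 0.51 ± 0.24 (adjusted p = 0.194), and FDXR, a mitochondrial reductase, by 0.47 ± 0.16 (adjusted p = 0.106), higher in 5 of 5 baboons. AEN, an apoptosis nuclease, was higher in 5 of 5 baboons at 0.78 ± 0.18 (adjusted p = 0.0637). MDM2, the ligase that degrades p53, changed by -0.01 ± 0.18 (adjusted p = 0.983) and BAX, a pore-forming death protein, by 0.11 ± 0.23 (adjusted p = 0.765). The sign of both depended on the setting, and their further probes gave -0.12 to 0.39 for MDM2 and -0.41 for BAX. The p53 list averaged 1.04 ± 0.21 in H0 baboons, 1.72 ± 0.16 on day 1 and 1.9 ± 0.27 on day 2 (SD, n = 5 each). On both days the means of DDB2, AEN, CDKN1A, MDM2 and BAX lay above the H0 mean and those of FDXR and PLK2 below it.

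Repair and replication genes had small positive medians with few calls. Of 29 DNA repair genes, 2 rose and 0 fell, with a median of 0.40 and positive medians in all 5 animals (0.09 to 0.46). Without baboon 1, 8 rose and 0 fell. UNG, the glycosylase that removes uracil from DNA, was at 0.03, 0.92, 1.35, 0.83 and 1.61 on day 2, against -2.75, -0.01, 0.19, -0.72 and -1 on day 1. Each animal was higher on day 2, and UNG rose 3.50-fold (1.81 ± 0.31, adjusted p = 0.0395). Of 30 cell cycle genes, 3 rose and 0 fell (median 0.47), and 10 rose and 2 fell without baboon 1. MCM4, a subunit of the replicative helicase, was at -1.70, -1.42, -1.01, -1.49 and -0.98 on day 2, against -2.87, -2.66, -2.51, -3.73 and -1.98 on day 1, without overlap, and rose 2.69-fold (1.43 ± 0.21, adjusted p = 0.0297). CENPF, a centromere protein, rose 2.04-fold (1.03 ± 0.15, adjusted p = 0.0295), and both genes had 3 of 5 day 1 arrays well above background. BUB1, a checkpoint kinase, was well above background on 3 of 5 day 2 arrays and 0 of 5 day 1 arrays, so it rose at least 1.14-fold (adjusted p = 0.0369). MKI67, the proliferation antigen, changed by -0.29 ± 0.19 (adjusted p = 0.333).

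Of 25 glycolysis genes, 3 rose and 1 fell, with a median of -0.20. Without baboon 1, 5 rose and 3 fell, against 8.74% and 15.3% of all genes. ENO2, an enolase, was at 0.95, 2.21, 2.48, 1.90 and 2.60 on day 2, against -2.48, 1.29, 0.73, -0.23 and -0.21 on day 1. Each animal was higher on day 2 and ENO2 rose 4.61-fold (2.21 ± 0.35, adjusted p = 0.0337). ALDOC, an aldolase, rose by 1.32 (adjusted p = 0.0422) and PFKP, the platelet-type phosphofructokinase, by 0.88 (adjusted p = 0.049), while the glucose transporter SLC2A3 fell by 0.76 (adjusted p = 0.0438). The isoforms ENO1 and ALDOA changed by 0.23 and -0.27 (adjusted p = 0.388 and 0.309). Of 19 genes of the acute response and of STAT3 feedback, 1 rose and 3 fell (median -0.16), the 3 being HP, HPR and CD177. Without baboon 1, 3 rose and 3 fell. SOCS2, an inhibitor of cytokine receptor signalling, was at -0.86, 2.41, 0.81, 0.76 and 1.25 on day 2, against -3.97, 1.02, -1.15, -1.03 and -1.57 on day 1. The days overlapped because baboon 1 was low and baboon 2 high on both, yet each animal was higher on day 2, and SOCS2 rose 4.64-fold (2.21 ± 0.28, adjusted p = 0.0294). SOCS3, the STAT3-induced member, changed by -0.54 (adjusted p = 0.0956).

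The largest rises also held genes outside these lists. ZNF462, a zinc finger protein, was at -1.78, -0.87, -1.81, -2.11 and -1.64 on day 2, against -4.73, -1.80, -5.23, -5.32 and -5.17 on day 1. Baboon 2 was the only animal with ZNF462 well above background on day 1, and the fitted rise was 2.81 ± 0.38 (adjusted p = 0.0294). CCDC80, a secreted matrix protein, was at -1.56, -1.87, -1.46, -0.94 and -1.50 on day 2, and 0 of 5 day 1 arrays were well above background, so CCDC80 rose at least 2.88-fold (adjusted p = 0.0294). This bound sets the day 2 mean against, per day 1 array, the higher of the probe's own signal and the lowest signal well above background. ACVR1C, a receptor for activins and nodal, rose by 2.22 ± 0.35 (adjusted p = 0.0334), with 2 of 5 day 1 arrays well above background and 0.94 on a second probe. WTH3DI rose by 2.29 ± 0.17 in the fit (adjusted p = 0.0294), with 2 of 5 day 1 arrays and 0 of 5 H0 arrays well above background, while animals differed widely, between -2.34 and 1.18 on day 2 and between -4.35 and -0.94 on day 1.

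Of 25 WNT pathway genes 2 rose and 0 fell, with a median of -0.10. Over all genes 2.24% rose and 0.606% fell. Without baboon 1, 3 rose and 6 fell, against 8.74% and 15.3% of all genes. WNT7A, a ligand, rose by 1.75 ± 0.31 (adjusted p = 0.0403), with 4 of 5 day 2 arrays and 1 of 5 day 1 arrays well above background. AXIN2, a feedback inhibitor, passed the threshold (adjusted p = 0.0403) but was well above background on 1 of 5 day 2 arrays and 0 of 5 day 1 arrays, so no fold is given. WNT3, another ligand, changed by 1.02 ± 0.49 (adjusted p = 0.196). Lists of complement (17 genes, median -0.57), heat shock and chaperone (19, -0.04), glucocorticoid-responsive (15, -0.03), immediate early (20, 0.20), cytosolic ribosomal protein (78, 0.12), respiratory chain and ATP synthase (66, 0.00) and proteasome genes (31, 0.12) had 0 genes past the threshold. HSPB1, a small heat shock protein, was at 1.81, 0.09, 0.91, 0.36 and -0.18 on day 2, against 1.74, 1.69, 2.08, 2.92 and 1.81 on day 1. Baboon 1 was close to its day 1 value and the other 4 were lower, and the change of -1.45 ± 0.36 did not pass (adjusted p = 0.0684), while without baboon 1 HSPB1 fell by 1.83 (adjusted p = 0.0221). A second HSPB1 probe, well above background on 5 of 5 arrays of each day, gave -1.49 and was lower in 5 of 5 baboons.

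Whether these changes differ from those of the 4 baboons with the milder syndrome was tested as the interaction of day and category over the 9 irradiated animals. No gene passed: 0 of 21130 had an adjusted p under 0.05 in limma (lowest 0.999), and 927 (4.39%) had an unadjusted p under 0.05. The change within H1-2 itself called 4 genes (0.0189%) in that fit, HP and HPR among them. The median change of the interferon-stimulated list was 0.84 in H2-3 and 0.12 in H1-2, and that of MHC class I genes 0.26 in H2-3 and -0.26 in H1-2. T cell genes had medians of 1.46 in H2-3 and 1.08 in H1-2. NK and cytotoxic genes had medians of 1.17 in H2-3 and 0.92 in H1-2, and mature neutrophil genes -0.51 in H2-3 and -0.98 in H1-2. No test was made of these medians.

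Of the named genes, HERC5 had the lowest unadjusted p for the difference. Its change was 3.40, 2.02, 2.27, 1.93 and 2.04 in the H2-3 baboons. In the 4 H1-2 baboons it was -0.04, 1.34, -1.21 and 0.38, and averaged 0.12 ± 0.37 (SE). The difference was 2.22 (95% interval 1.13 to 3.30), with an unadjusted p of 0.001 and an adjusted p of 0.999 in limma. USP18 differed by 1.56 (0.37 to 2.76) and GBP2 by 2.20 (0.34 to 4.06), with intervals above 0 before adjustment. ADAMDEC1 changed by -2.76 in H2-3 and -0.84 in H1-2, a difference of -1.91 (-3.68 to -0.14). In H1-2, ADAMDEC1 was well above background on 2 of 4 day 2 arrays and 3 of 4 day 1 arrays. USP18 was so on 1 of 5 H2-3 day 1 arrays and 2 of 4 H1-2 day 1 arrays. The sizes of these 2 differences are therefore uncertain. For CD8A the difference was 0.53 (-0.39 to 1.45), for PRF1 0.33 (-0.70 to 1.37), for CD177 0.83 (-0.85 to 2.50) and for HP 0.54 (-0.30 to 1.38), so the intervals of these 4 genes span 0 and allow differences of over 1 on the log2 scale. All of these had an adjusted p of 0.999.

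**Figure D4:**
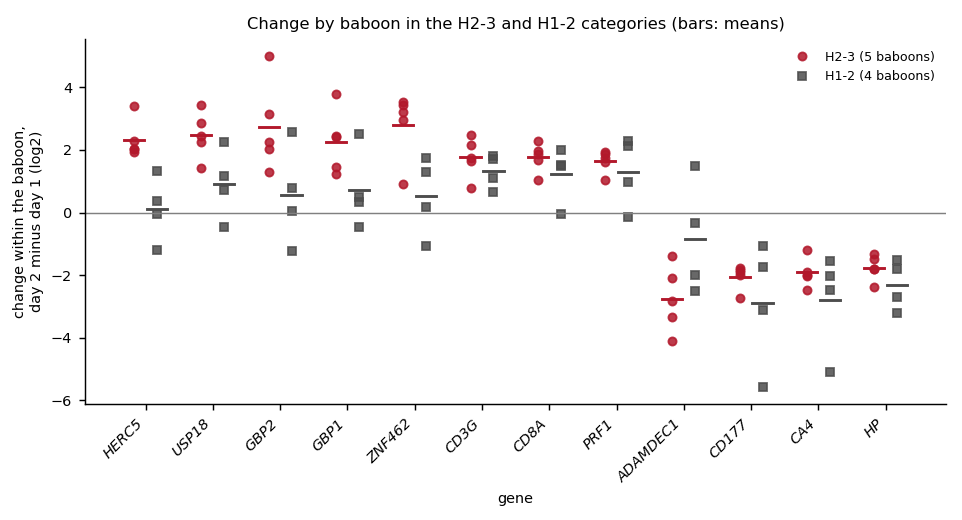
Change from day 1 to day 2 in each baboon (log2, vertical axis) for 12 genes picked as examples after their values were seen, H2-3 in red circles left of H1-2 in grey squares, with bars at the category means. For HERC5 the 5 H2-3 baboons lie between 1.93 and 3.40. The 4 H1-2 baboons lie between -1.21 and 1.34, with a mean of 0.12. For CD177, CA4 and HP every baboon of both categories lies below 0.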

How the data were processed

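Per the labels' protocols, 2.5 ml of blood went into PAXgene tubes, RNA was isolated, spiked and labelled with Cy3 from 100 ng, and each sample was hybridised to 1 human Agilent array. Per the file headers, the deposited intensity values (processed signals, linear scale) had their background subtracted by Agilent Feature Extraction 10.7.3.1 and were not normalised between arrays. The deposited table of log2 values has no stated normalisation: each column correlated with its array at 0.9982 to 0.9999 with a slope of 0.952 to 1.016, and every column has a median of 4.703, so its scale and direction were settled and its centring was not. It served as an alternative.

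From these files, log2 processed signals of non-control probes were taken relative to the 75th percentile of the array. Probes well above background on at least 4 of 23 arrays were kept, and per gene the kept probe with the highest mean, which gave 21130 genes (14714 with a symbol). The percentile ranged between 80.95 and 156.4 signal units, and the number of arrays limits the precision. The 5 H2-3 pairs were fitted with limma 3.58.1 in R 4.3.3, with the baboon as a block, two-sided moderated tests and Benjamini-Hochberg adjustment. The interaction was fitted over 9 baboons. The pairing comes from the titles, which number the same animals on both days; same-numbered arrays correlated in their deviations from the group means at 0.05, 0.44, 0.16, 0.13 and 0.33 for baboons 1 to 5, against at most 0.13, 0.16, 0.15, 0.07 and 0.29 with an array of another number, so baboon 1 did not match its own number best. On simulated data of 21130 genes, the paired fit recovered 0% of 67 log2 changes of 0.5, 25.4% of 67 of 1 and 72.7% of 66 of 2, and 6 of its 71 calls were unchanged genes. Only these planted genes changed, and noise was drawn independently for each gene. In the real data 31.6% of genes had an unadjusted p under 0.05 in limma, so the simulated rates may not hold there.

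The text names the 12 largest rises and the 12 largest falls among called genes with a symbol, a signal above background on all arrays of a day and the same sign in 5 of 5 baboons, the 2 members of each of 28 lists with the lowest p, and a panel of 20 markers (86 genes in all). Some genes that this naming would give are left out of the text. Other list members are examples picked with their values in view. The members, lists and panel were chosen with earlier results of these data known. Alternatives covered pairing, background correction, normalisation, probe filters, probe choice, array weights, slide and leaving out each baboon. Scan day as a block could not be fitted, since it coincides with the day.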

Additional observations from a re-analysis of the deposited data

Results flagged for a closer look

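Within the 5 H2-3 baboons, 7 of 122 sets of 5 values held an animal or array far from the others by Dixon's test, where chance alone marks about 1 in 20 such sets. The change of ZNF462 was 0.92 in baboon 2 and 2.95 to 3.54 in the other 4. HERC5 changed by 3.40 in baboon 1 and by 1.93 to 2.27 in the others. CD177 changed by -2.74 in baboon 2, against -2 to -1.78 in the others, and MSR1 by -1.22 in baboon 1, against -0.84 to -0.72. PSMB9 changed by 0.17 in baboon 5 and by 0.69 to 0.85 in the other animals. VPREB1 changed by -3.09 in baboon 3, the 1 animal with this gene above background on day 1, and by 0.92 to 1.69 in the others, whose arrays were all at background. The median change of the 78 cytosolic ribosomal protein genes was -0.24 in baboon 1 and 0.16 to 0.28 in baboons 2 to 5.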

How the results depend on the processing

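The number of called genes moved with the setting, while the 602 genes kept their sign in every alternative, except 2 of 602 with the mean of a gene's probes and 2 of the 317 that a stricter probe filter left. Without the pairing, that is with no replicate block, 167 genes were called over 10 arrays (97 higher, 70 lower, 139 shared with the 602), and 628 over 23 arrays (368 higher, 260 lower, 303 shared). With the baboon as a random block 2547 were called (1145 higher, 1402 lower), and with the block over 9 baboons 1398 (849 higher, 549 lower). Normexp background correction gave 961 (717 higher, 244 lower), no probe filter 348 (223 higher, 125 lower, of 36337 tested), a probe filter of all 10 arrays 346 lower, and array weights 4659 (1845 higher, 2814 lower). Slide as a random block, chosen after seeing the data, gave 0 higher and 0 lower. Leaving out 1 baboon gave 0 to 5082 genes (0 to 1846 higher, 0 to 3236 lower): 5082 without baboon 1, 60 without baboon 2 and 0 without baboon 3, 4 or 5. The cause of these differences was not tested.

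For the interaction, 0 genes passed in every alternative, with 485 to 2093 at an unadjusted p under 0.05 and a lowest adjusted p of 0.346. Of the 43 named genes that were called, 43 kept the call with quantile normalisation or the deposited table, 13 with no block over 10 arrays and 34 with normexp. No called gene changed sign. MDM2 turned positive with normexp (0.04), quantile normalisation (0.03), the percentile over detected probes (0.02), the deposited table (0.03), the mean of probes (0.15) and array weights (0.05), and ranged between -0.11 and 0.12 over the fits without 1 baboon. BAX was -0.15 with the mean of probes and -0.06 to 0.31 without 1 baboon. VPREB1 was -0.10 with normexp. Signals near background limit, among the genes that rose, CCDC80, ZNF462, USP18, ACVR1C, WTH3DI, WNT7A, BUB1 and AXIN2, which had 2 or fewer of 5 day 1 arrays above background, and among those that fell CRISP2, with 1 of 5 day 2 arrays.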

Other observations

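Several genes that did not pass lay close to the threshold. CCL3, a chemokine of monocytes and lymphocytes, was higher on day 2 in 5 of 5 baboons (0.92 ± 0.19, adjusted p = 0.0511 in limma), and its change in H1-2 was 1.57. CD55, which protects cells from complement, was at 4.09, 3.82, 3.83, 4.30 and 4.07 on day 2, against 5.46, 4.42, 4.44, 5.06 and 4.96 on day 1, with no overlap (-0.85 ± 0.17, adjusted p = 0.0514). CFD, complement factor D, was lower in 5 of 5 baboons (-0.83 ± 0.21, adjusted p = 0.074). The inducible chaperone HSPA1B was at 1.94, 1.47, 1.07, 1.82 and 1.99 on day 2, against 2.55, 2.64, 3.35, 2.83 and 2.77 on day 1, also with no overlap (-1.17 ± 0.26, adjusted p = 0.0577). KLF4, a transcription factor of monocytes, was lower in 5 of 5 baboons (-0.68 ± 0.17, adjusted p = 0.0668). PTGS1, the cyclooxygenase of platelets, was higher in 4 of 5 baboons (1.64 ± 0.38, adjusted p = 0.0622). RPL3, a protein of the large ribosomal subunit, changed by 0.61 ± 0.15 and was higher in 5 of 5 baboons (adjusted p = 0.0656), and its change in H1-2 was 0.92.

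The animals differed in how many genes moved. Between day 1 and day 2, at least 2-fold higher signals were seen for 1805, 780, 1589, 1906 and 1951 genes in baboons 1 to 5, and at least 2-fold lower signals for 1216, 762, 2608, 3151 and 3302 genes. Baboon 2 had the fewest in both directions.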
